A study of Rattus norvegicus with 8 samples.

Results

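Mitochondrial genome transcripts are the RNAs made inside mitochondria from their own small circular DNA. They were described here in nuclei of the nodose ganglia, which hold the cell bodies of vagal sensory neurons. All genes whose deposited symbol starts with Mt- or with AY172581. were taken, the latter being the name of the mitochondrial contig. The rule found 37 of 30560 genes. Of these, 13 carry Mt- names of protein genes and 24 are contig entries without such a name. Which of the 24 entries are ribosomal RNA genes and which are transfer RNA genes is not given in the sources used here, so they are written by their symbols.

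The animals were untreated Long Evans rats of 8 weeks, 18 male and 18 female. Each of the 12 pools combined the left or the right ganglia of 6 rats of 1 sex, with 3 pools for each labelled sex and side. Pools are written ML1 to ML3 (male, left), MR1 to MR3 (male, right), FL1 to FL3 (female, left) and FR1 to FR3 (female, right), numbered from 1 within each group. A pool filled 4 wells of the first barcoding round, and nuclei of all pools were then mixed over 8 sublibraries. Male-labelled pools lay in well rows A and B of that round and female-labelled pools in rows C and D. Labelled sex and well row therefore cannot be told apart. With 18 rats per sex, the left and the right pools of 1 sex would draw on the same rats and are then not independent animals. To that extent p-values for labelled sex, which measure the spread between pools, are too small. The same limit holds for the p-values between cell classes below, which take all pools as independent.

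The files held 36741 nuclei with 139965360 UMIs (unique molecular identifiers, each counting 1 captured transcript) and a median of 2680 UMIs per nucleus. Pool totals ran from 7140286 UMIs in ML2 to 19456287 in FR3. ML1 and FL1 went against their sex labels: Y-linked transcripts (Ddx3y, Kdm5d, Eif2s3y and Usp9y) summed to 2.88 CPM (UMI counts scaled to a common total in every pool) in ML1 and 88.6 in FL1, against 84.4 to 91.3 in the other male-labelled pools and 2.73 to 3.95 in the other female-labelled pools. Comparisons by labelled sex and side were therefore also made without these pools. Of the nuclei, 3808 (10.4%) carried a combination of the barcodes of all rounds before the sublibraries that occurred in more than 1 sublibrary. No combination could occur in 2 pools, since it includes the first-round well and each well held 1 pool. The doublet caller marked 5 nuclei (0.0136%) and so did not work as a filter.

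Mammalian mitochondrial DNA encodes subunits of the respiratory chain, the ribosomal RNAs of the mitochondrial ribosome and a set of transfer RNAs. Both strands are transcribed as long precursors that are cut into the single RNAs, and Mt-nd6 is the only protein gene read from the light strand. All other respiratory chain subunits come from nuclear genes. Mitochondrial RNA is made and kept in mitochondria and not in the nucleus, and its share of the counts is widely used as a quality measure in single-cell and single-nucleus work.

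The mitochondrial members gave 3316235 UMIs, 2.37% of all UMIs. A pair of contig entries held 91.2% of them: AY172581.24 (ENSRNOG00000043866) had 1913225 UMIs and was seen in 96.2% of nuclei, and AY172581.9 (ENSRNOG00000030478) had 1109887 UMIs and was seen in 91.2% of nuclei. The 13 protein genes together had 292279 UMIs, which is 8.81% of the mitochondrial UMIs and 0.209% of all UMIs. The other 22 contig entries had 844 UMIs in all. AY172581.3 led them with 432 UMIs, and AY172581.4 and AY172581.20 had none among the 139965360 UMIs.

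Among protein genes, the complex III subunit gene Mt-cyb had the most UMIs, 63971, and was seen in 50.5% of nuclei. The complex I genes ran from 40308 UMIs for Mt-nd5 and 33762 for Mt-nd4 through 11744 for Mt-nd2, 11636 for Mt-nd1, 9323 for Mt-nd6 and 1416 for Mt-nd4l to 298 for Mt-nd3. The ATP synthase genes Mt-atp6 and Mt-atp8 had 39380 and 10002 UMIs. The complex IV genes Mt-co3, Mt-co1 and Mt-co2 had 34383, 24598 and 11458 UMIs. These are capture counts that are not scaled to gene length, so they do not rank the genes by level. Mt-atp6 and Mt-atp8 overlap on the genome, as do Mt-nd4 and Mt-nd4l, and Mt-nd6 lies opposite the precursor of its neighbours. The sources used here do not say whether counting used strand or how reads that also match nuclear copies of mitochondrial sequence were treated, so the split between such partners is uncertain.

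The median nucleus had a mitochondrial share of 1.19%, the 95th percentile was 5.59% and the highest share was 73.8%. No mitochondrial UMI was seen in 481 nuclei, of which 478 were neurons. The contig entries decided which nuclei exceeded a limit of 5%: 2488 nuclei did so when all 37 members were counted. When only the 13 protein genes were counted, 0 nuclei did so and the highest share was 3.70%. Above 25% stood 13 nuclei, of which 9 were skeletal muscle nuclei, 7 of them in FR2.

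The pools differed 3.13-fold in their mitochondrial share, more than the wells within a pool did. The share of summed UMIs was 2.77% in ML1, 1.20% in ML2 and 1.92% in ML3. It was 2.52% in MR1, 1.29% in MR2 and 1.95% in MR3. Female-labelled left pools had 3.33% in FL1, 2.53% in FL2 and 2.56% in FL3, and right pools had 3.75% in FR1, 2.25% in FR2 and 2.05% in FR3. ML2 and MR2 stood lowest and FR1 and FL1 highest, and number 1 was the highest pool in each of the 4 groups. The 95% Wilson interval of a pool's share reached at most 0.0120 percentage points to either side, which covers counting error only.

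The lowest and highest pools stayed apart in every sublibrary. The SD between pools was 0.744 percentage points, the pooled SD between the 4 wells of a pool was 0.269, and the SD between the 8 sublibraries was 0.118. Sublibraries ran from 2.22% to 2.54%. Within the single sublibraries ML2 ran from 0.998% to 1.38% and MR2 from 1.13% to 1.48%, while FL1 ran from 3.05% to 3.66% and FR1 from 3.45% to 4.22%, so that these low and high pools did not overlap in any of them. Wells ran from 0.974% in ML2 to 4.15% in FR1. The highest well of a pool was between 1.07 and 1.58 times its lowest well, the latter in FL2.

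**Figure D1:**
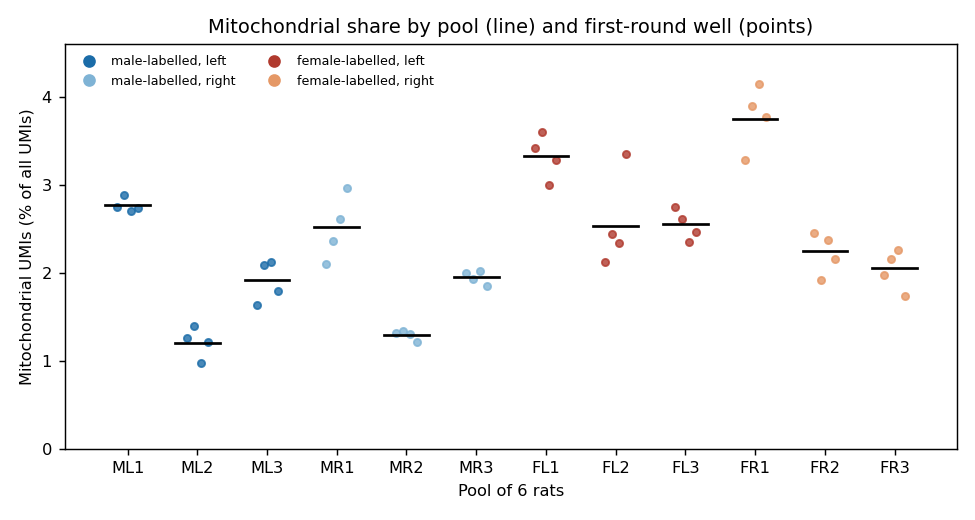
Mitochondrial share of all UMIs (y axis, percent) in the 12 pools (x axis). Each point is 1 of the 4 first-round wells of a pool, the line is the share of the whole pool, and colours mark labelled sex and side. ML2 and MR2 lie at 1.20% and 1.29% and FL1 and FR1 at 3.33% and 3.75%, and the wells of these low and high pools do not overlap.

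The abundant members shared the extremes of this range. All 14 members with at least 1000 UMIs were highest in FL1 or FR1 and lowest in ML2 or MR2. The level of AY172581.24 was 16758, 6668 and 11057 CPM in ML1 to ML3 and 13814, 7661 and 10474 in MR1 to MR3. The female-labelled pools had 18721, 14676 and 14674 CPM for FL1 to FL3 and 22129, 12776 and 12236 for FR1 to FR3, a 3.32-fold span over all pools whose groups overlapped. AY172581.9 spanned 3.09-fold, from 3966 CPM in MR2 to 12239 in FR1.

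Mt-cyb was at 469, 256 and 331 CPM in ML1 to ML3 and at 496, 257 and 389 in MR1 to MR3. Female-labelled pools had 715, 396 and 538 CPM of it for FL1 to FL3 and 664, 460 and 396 for FR1 to FR3. Mt-nd5 was at 291, 185 and 260 CPM in ML1 to ML3, 298, 199 and 301 in MR1 to MR3, 380, 283 and 308 in FL1 to FL3 and 409, 303 and 236 in FR1 to FR3. Both genes were low in ML2 and MR2 and high in FL1 and FR1, and male-labelled and female-labelled pools overlapped.

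Mt-atp6, which encodes a subunit of the ATP synthase, was at 291, 134 and 205 CPM in ML1 to ML3 and at 313, 154 and 203 in MR1 to MR3. It was at 400, 280 and 316 CPM in FL1 to FL3 and at 443, 321 and 245 in FR1 to FR3. Mt-nd6 was at 70.3, 51.0 and 57.0 CPM in ML1 to ML3 and at 72.9, 54.2 and 70.4 in MR1 to MR3. It was at 91.7, 70.6 and 65.6 CPM in FL1 to FL3 and at 92.3, 56.1 and 52.0 in FR1 to FR3. Mt-nd6 spanned 1.81-fold over the pools and Mt-atp6 3.31-fold, and the other 10 of the 12 protein genes with at least 1000 UMIs lay between these spans. AY172581.3 was at 0.980 CPM in ML2 and at 6.14 in FR1, its lowest and highest pools.

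Left and right ganglia did not differ detectably in their mitochondrial transcripts. The mean share was 2.38% ± 0.737 over the 6 left pools and 2.30% ± 0.819 over the 6 right pools (SD), a difference (right minus left) of -0.0798 percentage points with p = 0.825 (exact permutation within labelled sex, two-sided, 400 relabellings, smallest possible p 0.005). Without ML1 and FL1 the difference was 0.254 (exact permutation p = 0.59), and over the 13 protein genes it was 0.00464, so its sign was not fixed. ML1 and FL1 are both left pools and the highest of their groups, so leaving them out lowers the left mean. MR1 and FR1, the highest of their groups on the right, were kept. In neurons the left pools had 2.21% ± 0.831 and the right pools 2.05% ± 0.945, again SD over 6 pools (exact permutation p = 0.695).

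By gene, edgeR's quasi-likelihood test with Benjamini-Hochberg adjustment over all genes called 0 of the 18 members tested by side in all nuclei, against 0.0403% of all 14883 genes. At an unadjusted p under 0.05 it had 0 of the 18, against 7.24% of all genes, and DESeq2 also called 0. In neurons 0 of 16 members were called (background 0.141%), in satellite glia 0 of 14 (background 0%) and in myelinating Schwann cells 0 of 13 (background 0.0148%). At an unadjusted p under 0.05, edgeR had 0 members in neurons (background 6.48%), 0 in satellite glia (background 4.50%) and 1 in Schwann cells (background 5.50%). The members' median log2 fold change, right over left, was 0.04 in all nuclei and -0.08 in neurons, beside 0.00 over all genes in both. Without ML1 and FL1 the median was 0.26 in all nuclei, with 18 of 18 members positive. In neurons it was 0.20, with 16 of 16 positive against 2 of 16 in the full set, so the direction there turned. Both pools left out are left pools with the highest shares of their groups, and their removal by itself lowers the left level. In that setting, too, edgeR called 0 members by side and had 0 at an unadjusted p under 0.05 in all nuclei and in neurons. Of all genes in these fits, 4.25% were higher and 2.84% lower on the right at that level in all nuclei. In neurons 2.84% were higher and 2.39% lower. The other 19 members in all nuclei, and 21 in neurons, were too low for the count filter.

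Female-labelled pools had the higher mean mitochondrial share, within the spread of the pools. The mean was 1.94% ± 0.634 (SD, n = 6) in male-labelled pools and 2.74% ± 0.656 (SD, n = 6) in female-labelled pools, a difference of 0.802 percentage points (exact permutation within side p = 0.075). Without ML1 and FL1 the difference was 0.852 (exact permutation p = 0.0667). Leaving out ML1 alone gave 0.968 with an exact permutation p of 0.04. With left and right pools averaged by number, 3 against 3, the exact permutation p was 0.3, in a design whose smallest p is 0.1. Neurons had 1.69% ± 0.699 against 2.57% ± 0.806 (SD, n = 6 each; exact permutation p = 0.095), with an exact permutation p of 0.045 when ML1 alone was left out. In neurons without ML1 and FL1 the difference was 0.925 (exact permutation p = 0.0667).

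Depth moved with this contrast: the median neuron had 2160 to 3307.5 UMIs in male-labelled pools and 2865 to 4046 in female-labelled pools. Within neurons the mean share over pools also went with depth. It was 1.74% below 1000 nuclear UMIs, 1.15% from 1000 to 2000, 1.29% from 2000 to 4000, 2.06% from 4000 to 8000 and 3.37% above 8000. Its part in the difference between labelled sexes was not tested. Labelled sex also went with the row of the first-round wells, and the parts of these cannot be told apart. The interaction of labelled sex with side was -0.0775 percentage points (exact permutation p = 0.93), and -0.222 without ML1 and FL1 (exact permutation p = 0.85).

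In the other classes the same direction was seen, with p-values adjusted over 5 classes. Satellite glia had 2.29% ± 0.463 with a male label and 2.91% ± 0.383 with a female label (SD over 6 pools; exact permutation, adjusted p = 0.138). Schwann cells had 2.42% ± 0.304 and 2.77% ± 0.342 (SD, n = 6 each; exact permutation, adjusted p = 0.144). Endothelial nuclei had 2.05% ± 0.482 and 2.57% ± 0.464 (adjusted exact permutation p = 0.144), and mural nuclei 1.76% ± 0.415 and 1.98% ± 0.122 (adjusted exact permutation p = 0.22). The differences without ML1 and FL1 were 0.632, 0.461, 0.653 and 0.244 percentage points in the same order of classes (adjusted exact permutation p = 0.146, 0.146, 0.146 and 0.267). By side, none of the 5 classes passed the threshold with these pools (adjusted exact permutation p = 0.995 in each) or without them (0.92 in each).

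Fibroblast nuclei, with 10 to 55 nuclei per pool, were the 1 class past the threshold: 1.99% ± 0.406 with a male label and 2.59% ± 0.121 with a female label (SD over 6 pools; exact permutation p = 0.005, adjusted 0.025). The male-labelled pools ran from 1.31% to 2.37% and the female-labelled pools from 2.39% to 2.71%, so the groups did not overlap. Over the 13 protein genes the exact permutation p was 0.105. Without ML1 and FL1 the difference was 0.648 percentage points, with an exact permutation p of 0.0167, the smallest that design gives, and an adjusted p of 0.0833. Without pools of fewer than 20 fibroblast nuclei the groups still did not overlap, and the 18 relabellings left could not reach a p below 0.0556.

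No single member was called by labelled sex, although the fitted changes had 1 direction. In all nuclei edgeR's quasi-likelihood test called 0 of 18 members (background 0% of 14883 genes, DESeq2 0 members), and all 18 had a higher fitted level in female-labelled pools. At an unadjusted p under 0.05, 14 of the 18 passed, all higher in female-labelled pools, beside 7.26% of all genes that passed in this direction. Their median log2 fold change was 0.49, beside 0.00 over all genes, and 0.51 without ML1 and FL1. The members rise and fall together from pool to pool, so they are not 18 separate observations.

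Mt-co3 had the smallest p of the members, with a log2 fold change of 0.61 (SE 0.186, edgeR adjusted p = 0.29). Mt-atp6 had 0.62, Mt-cyb 0.52, AY172581.24 also 0.52, AY172581.9 had 0.46 and Mt-nd5 0.32, with edgeR adjusted p-values from 0.298 to 0.412. Mt-nd6 had the smallest change of the tested members, 0.17 (SE 0.149, edgeR adjusted p = 0.673). AY172581.14, with 99 UMIs in all, had the highest, 0.92 (SE 0.319, edgeR adjusted p = 0.318).

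In neurons 0 of 16 members were called by labelled sex (edgeR background 0.0212%, DESeq2 0 members), all 16 had a positive fold change, and 11 had an unadjusted p under 0.05 (background 8.32% in this direction). The median was 0.57, beside 0.00 over all genes, and 0.61 without ML1 and FL1. In satellite glia 0 of 14 were called (edgeR background 0%), 12 were positive and 9 had an unadjusted p under 0.05 (background 2.91%), with a median of 0.34. In Schwann cells 0 of 13 were called (edgeR background 0.0296%), 11 were positive, 3 had an unadjusted p under 0.05 (background 2.75%) and the median was 0.09. Without the low-count filter edgeR called 7 members in neurons (1.65% of all genes in that fit) and 7 in satellite glia (0.184%), all higher in female-labelled pools. Called in both were Mt-cyb, Mt-atp6, Mt-atp8, Mt-co3, Mt-nd2 and AY172581.24. Without ML1 and FL1 it called AY172581.24 in Schwann cells (log2 fold change 0.34, edgeR adjusted p = 0.0344), beside 0.263% of all genes in that fit. The interaction in neurons called 0 of 16 members (edgeR background 0%) and had 0 at an unadjusted p under 0.05 (background 4.43%).

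**Figure D2:**
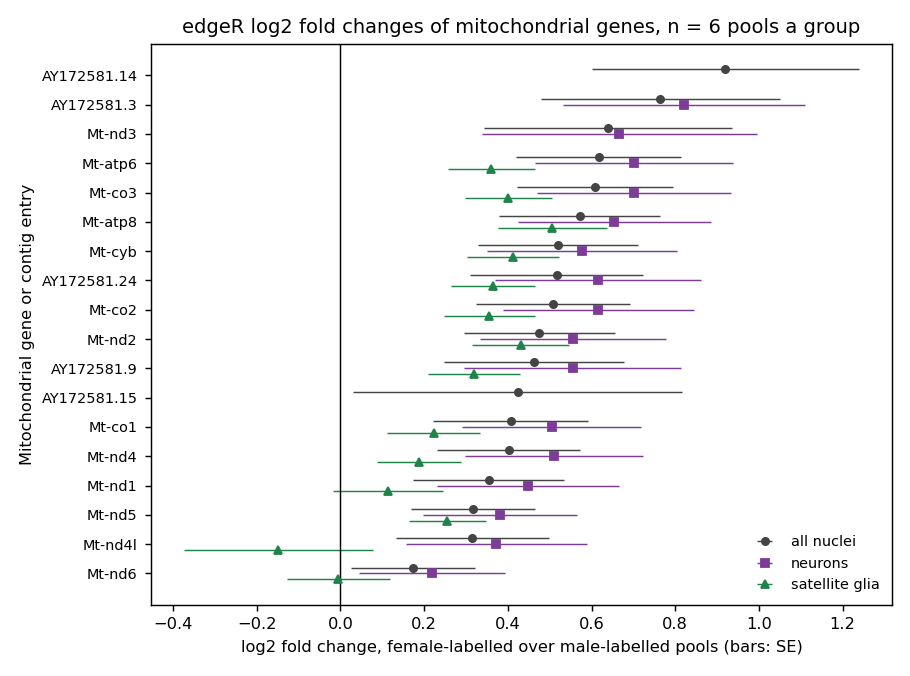
Log2 fold changes of the tested mitochondrial genes and contig entries (x axis, female-labelled over male-labelled pools, bars are SE) by gene (y axis) in all nuclei, neurons and satellite glia, from edgeR with 6 pools a group. All 18 in all nuclei and all 16 in neurons lie above 0, Mt-nd6 is lowest in both, and none has an adjusted p under 0.05.

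Nuclear genes of the same machinery were set beside them. Of 75 listed nuclear respiratory chain subunits 67 were tested in all nuclei; edgeR called 0, and 26 had an unadjusted p under 0.05 with a higher level in female-labelled pools and 0 with a lower one, beside 7.26% and 4.77% of all genes (median log2 fold change 0.16). Leaving out ML1 and FL1, 18 were higher and 1 lower, beside 6.41% and 4.83% of all genes in that fit. The smallest p-values belonged to Atp5pb (0.26, SE 0.0606, edgeR adjusted p = 0.182), Atp5f1b (0.23) and Cox4i1 (0.32), the first a pair of ATP synthase subunits and the last a subunit of complex IV. In neurons 25 of 67 were higher and 0 lower at an unadjusted p under 0.05, beside 8.32% of all genes that were higher. Atp5f1d, Cox4i1 and Atp5pb led them (edgeR adjusted p = 0.0808 to 0.0831). In neurons without ML1 and FL1, 21 were higher and 0 lower, beside 7.70% and 6.73% of all genes in that fit.

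For genes of mitochondrial DNA maintenance and transcription the median log2 fold change was 0.02. Of 20 tested in all nuclei, edgeR called 0, none was higher and 2 were lower in female-labelled pools at an unadjusted p under 0.05: Nrf1 (log2 fold change -0.11) and Ppargc1a (-0.24), a transcriptional coactivator of mitochondrial genes, beside 4.77% of all genes that were lower. With ML1 and FL1 left out, 1 was lower, beside 4.83% of all genes in that fit. For mitochondrial RNA processing and decay, 26 listed genes were found by symbol and 27 entries were tested, of which edgeR called 0. At an unadjusted p under 0.05, 2 were higher, Fastk (0.34) and Rexo2 (0.16), near the 7.26% of all genes. Without ML1 and FL1, 2 were higher, beside 6.41% of all genes in that fit. By side, 5 of the 67 respiratory chain subunits were higher on the right at an unadjusted p under 0.05, 0 were lower, and edgeR called 0, beside 4.18% of all genes that were higher on the right. When ML1 and FL1 were left out, 3 were higher, beside 4.25% of all genes in that fit.

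Cell classes were named from marker genes, with mitochondrial genes left out of the clustering. The neurons numbered 26863 nuclei, satellite glia (the glia that wrap neuron cell bodies) 3483, myelinating Schwann cells 2196, endothelial nuclei 744, skeletal muscle nuclei 549, mural nuclei 479 and fibroblasts 310. Unnamed were 2117 nuclei, of which 1658 lay in 4 clusters among the glia and the others in cluster c21 (Th, Nxph1). Median depth differed: 2968 UMIs in neurons, 2018 in satellite glia, 1552 in Schwann cells and 1814.5 in endothelial nuclei.

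Neurons had the lower mitochondrial share by nucleus and the widest spread between pools. Their share of summed UMIs was 2.13% ± 0.853 (SD, n = 12 pools), from 0.955% in ML2 to 3.76% in FR1. Satellite glia had 2.60% ± 0.518, from 1.66% in ML2 to 3.39% in FR1. Schwann cells had 2.59% ± 0.359, from 2.03% in MR2 to 3.33% in FL3, and endothelial nuclei 2.31% ± 0.5264, from 1.60% in ML2 to 3.43% in FL3 (SD, n = 12 each). The highest pool was 3.94 times the lowest in neurons, 2.04 times in satellite glia and 1.64 times in Schwann cells.

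Satellite glia exceeded the neurons of their own pool in 9 of 12 pools, by 0.473 percentage points on average (exact sign-flip permutation over pools, adjusted over 5 classes, p = 0.0415). This call was lost without any 1 of 8 pools (ML2, ML3, MR1, MR2, MR3, FL3, FR2 or FR3; differences 0.434 to 0.476, adjusted p = 0.0684 to 0.083). Schwann cells exceeded neurons by 0.460 (exact sign-flip adjusted p = 0.156; 0.591 and 0.0439 without FL1), endothelial nuclei by 0.178 (exact sign-flip adjusted p = 0.429) and fibroblasts by 0.266 (7 pools; exact sign-flip adjusted p = 0.429). Mural nuclei were lower by 0.259 on average over 9 pools (exact sign-flip adjusted p = 0.429).

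The median nucleus gave a wider gap: 0.740% in neurons, 2.01% in satellite glia, 2.36% in Schwann cells and 1.78% in endothelial nuclei. An alternative chosen after the data were seen kept only nuclei with 1000 to 4000 nuclear UMIs. In this depth window satellite glia exceeded neurons by 1.17, Schwann cells by 1.32 and endothelial nuclei by 0.866 percentage points (exact sign-flip adjusted p = 0.000977, 0.000977 and 0.00521). Depth was not matched within the window, which leaves out the deeper neurons with their higher shares. Thinned to 750 UMIs, 49.8% ± 9.998 of neurons, 82.3% ± 4.41 of satellite glia, 80.1% ± 4.89 of Schwann cells and 75.4% ± 5.55 of endothelial nuclei (SD, n = 12 pools) had at least 1 UMI of a protein gene. Unthinned, the shares of nuclei were 74.5%, 95.2%, 93.6% and 90.2%. All nuclei reached 750 UMIs, and no class lacks mitochondria to serve as a background. How much of these UMIs was free RNA from other cells was not tested.

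**Figure D3:**
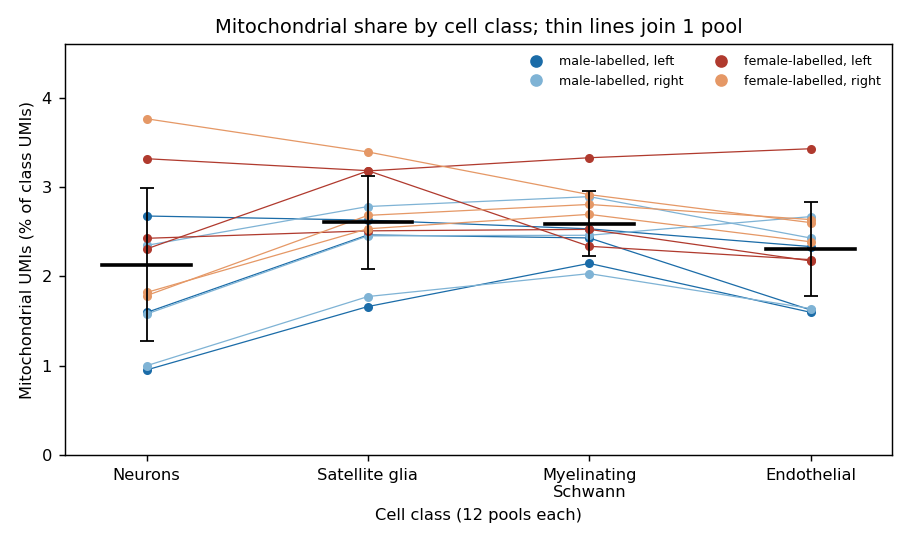
Mitochondrial share (y axis, percent of the UMIs of the class) in 4 cell classes (x axis). Points are the 12 pools, thin lines join the same pool, thick lines are means and bars SD. Neurons span 0.955% to 3.76% and Schwann cells 2.03% to 3.33%, so the lines draw together from left to right up to the Schwann cells.

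Skeletal muscle nuclei had the highest share, but rested on few pools. Only MR1, FL1 and FR2 held at least 20, with 69, 41 and 396 nuclei, and their shares were 3.69%, 3.57% and 4.92%. The UMIs of cytoplasmic ribosomal protein mRNA, another set of RNAs found mainly outside the nucleus, were 0.0342% in neurons, 0.0569% in satellite glia, 0.0740% in Schwann cells and 0.0905% in mural nuclei. By summed UMIs they did not follow the order of the mitochondrial shares: mural nuclei had the lowest mitochondrial mean and the highest ribosomal one. The lower mitochondrial mean of mural nuclei was not past the threshold against neurons. By median nucleus they stood above neurons, 1.59% against 0.740%.

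The makeup of the mitochondrial UMIs differed between neurons and 4 of the 5 other classes tested. The 13 protein genes held 8.53% ± 0.883 of the mitochondrial UMIs in neurons and 11.3% ± 0.940 in satellite glia (SD, n = 12; higher in 12 of 12 pools, exact sign-flip adjusted p = 0.00122). They held 10.1% ± 1.20 in Schwann cells (11 of 12 pools, exact sign-flip adjusted p = 0.00163) and 11.8% ± 1.52 in endothelial nuclei (12 of 12 pools, exact sign-flip adjusted p = 0.00122). Fibroblasts had 12.4% ± 1.34 (7 of 7 pools, exact sign-flip adjusted p = 0.0195). Mural nuclei had 8.75% ± 0.942, against 8.51% in the neurons of the same 9 pools (higher in 6 of 9, exact sign-flip adjusted p = 0.574). In neurons the part went with depth, from 10.5% below 1000 nuclear UMIs to 7.84% above 8000. At 1000 to 4000 nuclear UMIs the excess over neurons was 2.99 in satellite glia and 2.34 in endothelial nuclei (exact sign-flip adjusted p = 0.00195 and 0.00781), while that of Schwann cells was 0.402 and missed the threshold (exact sign-flip adjusted p = 0.156).

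Mt-nd6, a complex I subunit gene, took a larger part of the protein-gene UMIs in neurons than in any of 4 other classes. It had 3.83% ± 0.654 in neurons, 2.45% ± 0.453 in satellite glia, 1.84% ± 0.342 in Schwann cells and 2.19% ± 0.763 in endothelial nuclei (SD, n = 12), and it was lower than in neurons in 12 of 12 pools in each of these classes (exact sign-flip permutation, adjusted over 5 classes, p = 0.000814 each). Fibroblasts had 1.85% ± 1.13 (lower in 7 of 7 pools, exact sign-flip adjusted p = 0.0195), and mural nuclei 2.87% ± 1.69 (9 pools, exact sign-flip adjusted p = 0.145).

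By pool, the neurons had 3.63%, 4.87% and 4.45% in ML1 to ML3, 3.78%, 4.86% and 4.19% in MR1 to MR3, 3.25%, 4.08% and 3.17% in FL1 to FL3 and 3.16%, 3.10% and 3.38% in FR1 to FR3. Schwann cells had 1.67%, 2.61% and 1.71% in ML1 to ML3, 1.87%, 2.01% and 2.38% in MR1 to MR3, 1.61%, 1.498% and 1.57% in FL1 to FL3 and 1.70%, 1.59% and 1.79% in FR1 to FR3. All 12 values of neurons lay above all 12 of Schwann cells. Each rests on 264 to 1069 Mt-nd6 UMIs in neurons and on 7 to 48 in Schwann cells.

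At matched depth the difference from neurons was -1.62 percentage points in satellite glia, -2.33 in Schwann cells and -1.63 in endothelial nuclei (exact sign-flip adjusted p = 0.000977, 0.000977 and 0.00781). In neurons the Mt-nd6 part was between 3.46% and 4.18% in all 5 bins of depth. The 21 neuron clusters ran from 2.96% to 6.40%, and the 7 clusters of satellite glia and Schwann cells from 1.51% to 2.76%. The named clusters of neurons and of glia thus did not overlap. Endothelial cluster g15, with 77 nuclei, had 3.61%, within the range of the neuron clusters, and endothelial cluster g7, with 667 nuclei, had 2.27%. Of the 4 unnamed clusters among the glia, g14 had 3.22% and g10 2.94%, within or near the range of the neuron clusters, and g12 had 2.63% and g6 2.44%. The unnamed cluster c21 (Th, Nxph1), outside the glia, had 2.62%, within the range of the glial clusters. In CPM, Mt-nd6 was at 65.1 ± 17.1 in neurons and 70.3 ± 11.3 in satellite glia (SD, n = 12), while Mt-cyb was at 392 ± 156 and 639 ± 152.

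**Figure D4:**
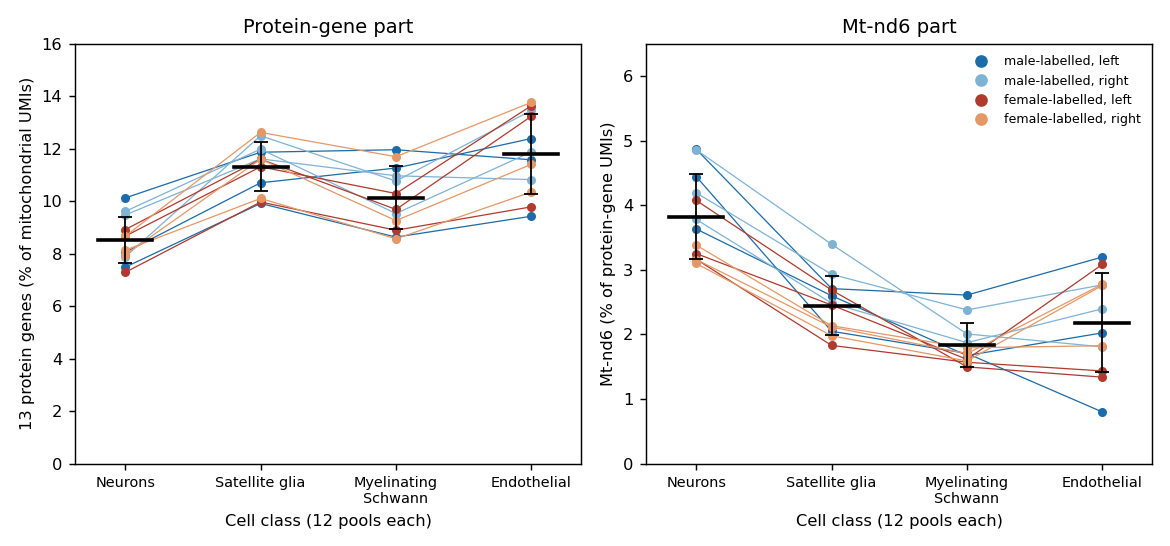
Left, the 13 protein genes as a percentage of mitochondrial UMIs, and right, Mt-nd6 as a percentage of the protein-gene UMIs (y axes), in 4 cell classes (x axes). Points are the 12 pools joined by thin lines, thick lines are means and bars SD. Every pool falls from neurons to satellite glia in the right panel, where neurons average 3.83% and Schwann cells 1.84%, and every pool rises from neurons to satellite glia in the left panel.

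Other members also shifted, each tested over 12 pools with p-values adjusted over 14 members. AY172581.24 held 58.2% ± 2.11 of the mitochondrial UMIs in neurons and 54.6% ± 2.36 in satellite glia, 54.4% ± 3.06 in Schwann cells and 54.3% ± 2.91 in endothelial nuclei (SD, n = 12). It was lower than in neurons in 12 of 12 pools in each (exact sign-flip adjusted p = 0.00171, 0.000977 and 0.00342). AY172581.9 was higher in all 12 pools in satellite glia (34.1% against 33.2%) and Schwann cells (35.4%).

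Of the complex I genes, Mt-nd2 took 5.66% ± 0.823 of the protein-gene UMIs in Schwann cells against 3.75% ± 0.291 in neurons, and Mt-nd1 took 5.15% ± 0.664 against 3.81% ± 0.196 (SD, n = 12; both higher in 12 of 12 pools, exact sign-flip adjusted p = 0.000977). Mt-nd5 went in opposite directions in the glial classes. It was 12.05% ± 1.20 in Schwann cells, below the 14.2% ± 1.56 of neurons in 12 of 12 pools (exact sign-flip adjusted p = 0.000977), and 15.5% ± 0.926 in satellite glia, above neurons in 10 of 12 (exact sign-flip adjusted p = 0.013). The complex IV gene Mt-co3 was lower in satellite glia, 10.5% ± 0.754 against 11.9% ± 0.841 in neurons (12 of 12 pools, exact sign-flip adjusted p = 0.00171). Mt-atp8 was higher in Schwann cells, 4.53% ± 1.18 against 3.21% ± 0.435 (12 of 12 pools, exact sign-flip adjusted p = 0.000977).

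The contig entries' part of the mitochondrial UMIs did not differ detectably between groups of pools. Left pools had 91.4% ± 0.909 and right ones 90.8% ± 0.683 (SD over 6 pools; exact permutation p = 0.27), and 90.9% ± 0.889 with a male label and 91.2% ± 0.791 with a female label (exact permutation p = 0.535). The exact permutation p without ML1 and FL1 was 0.43 by side and 0.25 by labelled sex.

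The 21 neuron clusters covered a wider range of shares than the cell classes. Clusters are named by number and leading genes, and each value is the mean over pools with at least 10 nuclei of the cluster. The lowest was cluster c4 (Tafa4, Esr1, Crhr2) with 0.581% ± 0.255 (SD, n = 12), followed by c16 (Tmem233, Spon1, Tacr1) with 0.978% ± 0.581. In the middle, c0 (Fhip1a, Kirrel3), the largest with 4088 nuclei, had 1.72% ± 0.805 and c2 (Itgae, Gpr65, Chrm2) 1.76% ± 0.874. Above 2.5% stood c8 (Cysltr2, Gdpd4) with 2.69% ± 1.19, c15 (Tafa4, Itm2a) with 2.96% ± 1.31, c17 (Chodl, Cartpt, Tmsb10) with 4.18% ± 0.816 and c19 with 6.61% ± 2.21 (SD, n = 12).

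Cluster c19 was led by Spp1, Kcna1, Nefh, Syt2 and Scn4b. Nefh encodes the heavy neurofilament chain of large myelinated axons, Kcna1 a potassium channel and Scn4b a sodium channel subunit. It held 719 nuclei with a median of 1507 UMIs, low for neurons, and 63.8% of them had a mitochondrial share above 5%. Its lowest pool was ML2 with 3.48% and its highest FR1 with 10.7%. Cluster c17 had a median of 8354.5 UMIs, and 23.8% of its nuclei were above 5%. In c4, whose median depth was 2644 UMIs, 0.0855% were. The high shares were thus found at both low and high depth. The nuclear respiratory chain subunits were at 0.235% of UMIs in c19, 0.194% in c17 and 0.105% in c4.

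Across the 21 neuron clusters the mitochondrial share had a Spearman correlation of 0.56 with the share of nuclear respiratory chain subunits, 0.69 with that of ribosomal protein mRNA and 0.44 with median UMIs. These are descriptions over clusters that share pools, libraries and depth, and the clusters are not replicates. Within clusters the highest pool was 1.97 to 7.09 times the lowest, with a median of 4.76. In 17 of 21 clusters the highest pool was FL1 or FR1, and in 20 of 21 the lowest was ML2 or MR2. The same pools were thus at the extremes in most neuron clusters, while the order of the pools between them was not compared. An alternative added after the data were seen gave every pool the same makeup of 18 of these clusters. The difference between labelled sexes in neurons was then 0.874 percentage points, beside 0.877 as measured. The cause of this difference was not tested.

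**Figure D5:**
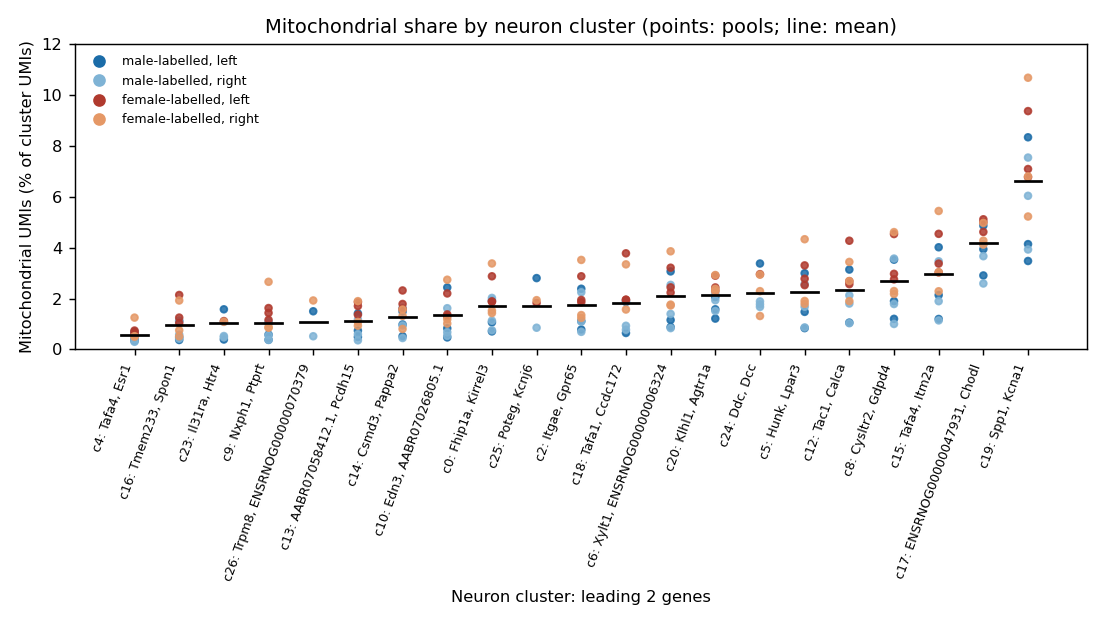
Mitochondrial share (y axis, percent of the UMIs of the cluster) in the 21 neuron clusters (x axis, number and leading 2 genes), ordered by mean. Points are pools with at least 20 nuclei of the cluster, coloured by labelled sex and side. Lines are means over pools with at least 10 nuclei of it, so they can include pools that are not drawn. The means rise from 0.581% in c4 to 6.61% in c19.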

How the data were processed

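The authors deposited a matrix of raw UMI counts by nucleus, the names of its genes and a table of nuclei with pool, well, transcript, gene and mapped-read counts; matrix sums equalled the deposited counts in each nucleus. Per the submitters' processing notes, R 4.3.2, Seurat 4.1.3 and the build mRatBN7.2 were used, and the sources used here name no aligner or counting options. Per the labels' protocols, nuclei were fixed and barcoded with Evercode version 2 kits and sequenced on a NextSeq 2000. Other deposited columns hold names (pool, well, barcode, symbol). No nucleus was removed (each had at least 273 genes and 779 UMIs). Members and gene lists were chosen with earlier results of these data known.

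Nuclei were clustered without mitochondrial genes (scanpy 1.11.5, leidenalg 0.10.2, resolution 1, with 3000 variable genes, 30 principal components and 20 neighbours). Clusters were named where at least 3 markers stood 2-fold higher (1.5-fold for neurons) in at least 10% of nuclei. Non-neuronal names also needed a marker among the 10 leading genes of the cluster. Clusters g10, g12 and g14 passed with 9 markers each but stayed unnamed because they also carried a neuron marker. Cluster c21 passed for neurons with 4 but stayed unnamed because it also carried markers of a non-neuronal class. Names mean "like" that type. Scrublet marked 5 nuclei. Classes were used in pools with at least 20 nuclei, except in the comparison of labelled sex and side, which used all pools. Means, SDs and extreme pools of clusters used pools with at least 10 nuclei. Shares are percentages of summed UMIs per pool, so pools are the replicates. Side and labelled sex were compared by exact permutation within the other factor and classes by exact sign flips of the differences within pools, all two-sided. Genes were tested on pool sums with edgeR 4.0.16 (quasi-likelihood, TMM, filterByExpr, additive side and labelled sex, and their interaction in neurons) in R 4.3.3. DESeq2 1.42.0 was an alternative. Adjusted p-values are Benjamini-Hochberg, with a threshold of 0.05. The edgeR script was tested on simulated counts.

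The planned test of ribosomal RNA entries used all 24 contig entries without an Mt- name instead, since the reference held no mitochondrial genes. A planned list of nucleus-retained RNAs matched no symbol, and 4 of 7 blood genes matched (2.24 ± 1.27 CPM in all nuclei, SD, n = 12). By symbol 68 of 75 respiratory chain subunits and 26 of 27 genes of mitochondrial RNA processing and decay were found. Named with values were the members with the most UMIs, Mt-nd6, any member called, and the 3 list genes with the smallest p. The equal neuron cluster makeup, averaged left and right pools, the fibroblast result, the parts of protein genes and of Mt-nd6, the matched depth, and the other classes and nuclear lists without ML1 and FL1 were added after the data were seen.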

Additional observations from a re-analysis of the deposited data

Results flagged for a closer look

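In groups of 4 to 10 values, a value was marked when its gap to the nearest other value exceeded Dixon's 95% limit; 37 groups were examined and chance marks about 1 in 20. Marked were 3. FL3 had the highest mitochondrial share of Schwann cells among left pools, 3.33%, and the next was 2.53%. FL3 also had the highest share of endothelial nuclei among female-labelled pools, 3.43%, from 21 nuclei, and the next was 2.64%. MR2 had the lowest share of endothelial nuclei among right pools, 1.64%, and the next was 2.39%.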

How the results depend on the processing

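The share differences by side and their interaction with labelled sex changed sign with the setting. The side difference in the contig entries' part kept its sign (-0.798 to -0.336 without single pools). By side the share difference was 0.00464 over the protein genes and 0.254 (neurons 0.228) without ML1 and FL1, and it ran from -0.369 to 0.123 (neurons -0.506 to 0.0576) when each pool was left out. The interaction was 0.119 by medians over nuclei and ran from -0.61 to 0.305 without single pools. By labelled sex the difference kept its sign, from 0.601 to 0.968 (neurons 0.639 to 1.07) without single pools, and passed the threshold without ML1 (exact permutation p = 0.04 and 0.045) and, in neurons, by medians over nuclei (0.653, exact permutation p = 0.03). The fibroblast difference was 0.0554 over protein genes (not past the threshold) and 0.356 without pools of fewer than 20 nuclei, where no p below 0.0556 was possible.

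Against neurons, the share of satellite glia ran from 0.434 to 0.549 and that of Schwann cells from 0.394 to 0.591 (past the threshold without FL1) without single pools. Differences past the threshold in place of the main value were, over the 13 protein genes, Schwann cells 0.0837, endothelial nuclei 0.0958 and fibroblasts 0.119. By medians over nuclei they were 1.34, 0.795 and 1.09, and mural nuclei became higher by 0.563. In nuclei thinned to 750 UMIs they were 30.3, 25.6 and 32.8, with mural nuclei higher by 15.3 percentage points of nuclei. At 1000 to 4000 nuclear UMIs they were 1.32 for Schwann cells and 0.866 for endothelial nuclei, with mural nuclei higher by 0.642. At Leiden resolution 0.5 mural nuclei were higher by 0.0419. The protein-gene part of mural nuclei differed by 2.19 at resolution 0.5, by -0.154 in that depth window and by -0.0101 to 0.445 without single pools. That of Schwann cells differed by 0.402 in the window. The Mt-nd6 part of mural nuclei was past the threshold at resolution 0.5 (-1.43) and 2 (-1.23) and without ML1, and ran from -1.45 to -0.689 without single pools. For the other 4 classes every alternative run kept the sign and the call of the Mt-nd6 part.

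By labelled sex, edgeR without the low-count filter called 7 members in neurons and 7 in satellite glia, and without ML1 and FL1 it called 1 in Schwann cells. Without single pools it called 0 to 1 in satellite glia, the 1 being Mt-atp8 without MR1. The share of all genes called in that fit is not given here, so this call has no background beside it. All genes called by labelled sex numbered 0 in all nuclei and 3 in neurons with edgeR and 74 and 322 with DESeq2. Of 784 alternative values, 728 kept direction and call. The cause of the changes was not tested. Left and right pools share numbers, but deviations of same-numbered pools correlated between -0.273 and 0.266 over all nuclei, so the numbers were not taken to pair them. With the number as a replicate block, 0 members were called by side in each class. The side difference (-0.0798, neurons -0.163) is the same with such blocks by construction, so it says nothing about stability. The 22 minor contig entries had few UMIs and 2 of them had none, and the cause was not tested.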
